A study of Homo sapiens with 6 samples.

Results

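The interferon response of OVCAR8, an ovarian cancer cell line, was examined through 56 genes of interferon signalling and interferon induction, taken from a list of symbols. Genes of antigen presentation were left out of the list. A listed gene entered the tests if its value was at least 10 in at least 2 of the 6 samples, and 44 of the 56 did so, among 9671 tested genes of the 14930 in the table. IFIH1, DHX58, SAMD9L and PARP9 were in the table but stayed under that limit, and IFI44L, OAS1, OAS2, RSAD2, XAF1, TRIM22, CMPK2 and EPSTI1 were not analysed here. The study compared control cells (Ctrl), cells treated with DZNep and cells in which doxycycline switched on a short hairpin RNA against EZH2 (shEZH2), with 2 samples in each group. EZH2 is the methyltransferase of Polycomb repressive complex 2, and DZNep, an inhibitor of S-adenosylhomocysteine hydrolase, lowers EZH2 protein. The labels give the DZNep dose as 5 mM and doxycycline as 1 mg/mL, whereas the methods of the study write the same figures in micromolar and micrograms per millilitre. Exposure lasted 72 h, and control cells received DMSO. The hairpin was carried by a lentiviral Tet-pLKO vector in a stable line, OVCAR8-shEZH2#2. No sample with a scrambled hairpin or with doxycycline alone was analysed here, and the sources do not say whether the control RNA came from cells that carry the vector. Hairpin, vector, doxycycline and loss of EZH2 therefore cannot be told apart in the shEZH2 group.

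Type I interferons bind the IFNAR receptor and activate the kinases JAK1 and TYK2, which phosphorylate STAT2. Together with IRF9 it is part of a complex that binds the interferon-stimulated response element (ISRE), whereas interferon gamma acts through GAS elements. Cytosolic sensors of RNA and DNA start the same program by inducing interferon, and the induced genes block viral translation, replication, entry and release. ISG15, a ubiquitin-like protein, is attached to other proteins by enzymes that are themselves induced.

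The deposited values are whole-number scores that sum to between 999956 and 1000068 in every sample, so they are not read counts and sequencing depth is unknown. EZH2 itself read 36 and 42 in Ctrl, 26 and 26 with DZNep and 18 and 18 in shEZH2. Its log2 fold change was -0.63 ± 0.18 (SE, n = 2 per group, as for all fold changes here) with DZNep (adjusted p = 0.0255) and -1.12 ± 0.18 in shEZH2 (adjusted p = 0.0160). For EZH2, the DZNep call was lost without Ctrl replicate 2 (0.0832), DZNep replicate 2 (0.0735) or either shEZH2 sample (0.0914 and 0.0915), and the shEZH2 call without either shEZH2 sample (0.206 and 0.170). The shEZH2 samples were closer to each other than those of the other groups: the log2 difference between replicates had an SD of 0.141 over all tested genes, against 0.428 in Ctrl and 0.447 with DZNep. Nothing in the sources says that replicates were separate cultures, so p-values here measure only the spread between these samples. Of 9 epithelial and ovarian markers, 7 were in the table. KRT7 read 350 to 597 and EPCAM 5 to 12, whereas WT1 stayed at 1 or 2. KRT8 rose from 1021 and 816 in Ctrl to 3540 and 3046 with DZNep (log2 fold change 1.77, adjusted p = 0.000851) and KRT18 from 1392 and 1080 to 4398 and 3793 (1.66, adjusted p = 0.00126). PAX8 fell from 17 and 19 to 10 and 13 (-0.68, adjusted p = 0.0277), and CDH1 read 1 and 0 in Ctrl and 7 and 8 with DZNep. In shEZH2 none of KRT7, KRT8, KRT18 and PAX8 passed the test. Of 7 leukocyte markers, 4 were in the table. Their summed values were 71 to 76 in Ctrl, 21 and 22 with DZNep and 35 to 38 in shEZH2, nearly all of it from CD68, and without CD68 the sums stayed between 4 and 7. The only endothelial marker in the table, VWF, did not exceed 2. The part of these markers in the results was not tested. In bulk RNA, fewer cells that express a gene and less RNA per cell cannot be told apart.

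Promoter sequence was taken from RefSeq windows on GRCh38.p14 that run from 250 bases before to 50 bases after an annotated start, and 46 of the 56 listed genes had at least 1 window. The ISRE core was searched as GAAANNGAAA on either strand (TTTCNNTTTC on the other), and the GAS core as TTCNNNGAA, which reads the same on both strands and may overlap an ISRE match. Among the 37 tested members with a window, 21 (56.8%) held an ISRE core and 9 (24.3%) a GAS core, compared with 4.38% and 9.38% of all 27305 genes in the promoter table. IFIT2, IFITM2, IRF7, OASL, MX2, USP18 and PML had no entry. The windows below cover 140 bases before to 10 bases after the start and show members that went opposite ways. ISG15 (chr1:1013357-1013506, plus strand) and OAS3 (chr12:112938334-112938483, plus strand) were higher after both treatments, as was IRF1 (chr5:132490764-132490913, minus strand). ISG20 (chr15:88638876-88639025, plus strand) and IFITM1 (chr11:313900-314049, plus strand) were lower with DZNep. IFIT1 (chr10:89392483-89392632, plus strand), which passed no test, was chosen for display after its values were seen, because its neighbour IFIT2 had no window. Capitals mark the ISRE core, except in IRF1, where they mark the GAS core. A further ISRE match of OAS3, at -143 to -134, is cut by the edge of the printed window and is not marked.
ISG15: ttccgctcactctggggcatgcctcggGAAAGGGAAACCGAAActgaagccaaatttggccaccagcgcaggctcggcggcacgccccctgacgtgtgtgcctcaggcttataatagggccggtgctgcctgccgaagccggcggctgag
OAS3: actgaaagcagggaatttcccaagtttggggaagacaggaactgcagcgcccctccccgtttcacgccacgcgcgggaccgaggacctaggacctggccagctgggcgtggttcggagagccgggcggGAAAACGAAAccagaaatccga
IRF1: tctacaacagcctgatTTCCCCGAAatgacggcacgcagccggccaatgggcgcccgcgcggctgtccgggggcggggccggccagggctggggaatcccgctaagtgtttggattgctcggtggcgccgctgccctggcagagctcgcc
ISG20: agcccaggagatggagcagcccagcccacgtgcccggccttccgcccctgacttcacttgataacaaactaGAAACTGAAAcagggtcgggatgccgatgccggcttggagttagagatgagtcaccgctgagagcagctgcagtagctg
IFITM1: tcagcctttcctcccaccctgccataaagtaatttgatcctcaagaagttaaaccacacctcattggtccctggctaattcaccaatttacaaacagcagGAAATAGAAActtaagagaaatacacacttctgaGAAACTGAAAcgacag
IFIT1: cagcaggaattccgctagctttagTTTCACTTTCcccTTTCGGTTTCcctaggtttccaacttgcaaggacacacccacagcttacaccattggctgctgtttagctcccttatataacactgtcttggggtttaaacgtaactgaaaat

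The ISRE core was present in members that rose, in members that fell and in members that were not called. With DZNep, 4 of 8 higher, 2 of 4 lower and 15 of 25 uncalled members with a window held the ISRE core. In shEZH2 it was present in 3 of 5 higher and 18 of 32 uncalled members. In ISG15, a pair of overlapping matches lay at positions -113 to -98 from the start. ISG20, which went the other way with DZNep, had its match at -69 to -60, and IFITM1 had matches at -40 to -31 and across the start itself. A match describes the letters of the window and not a site in use.

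**Figure D1:**
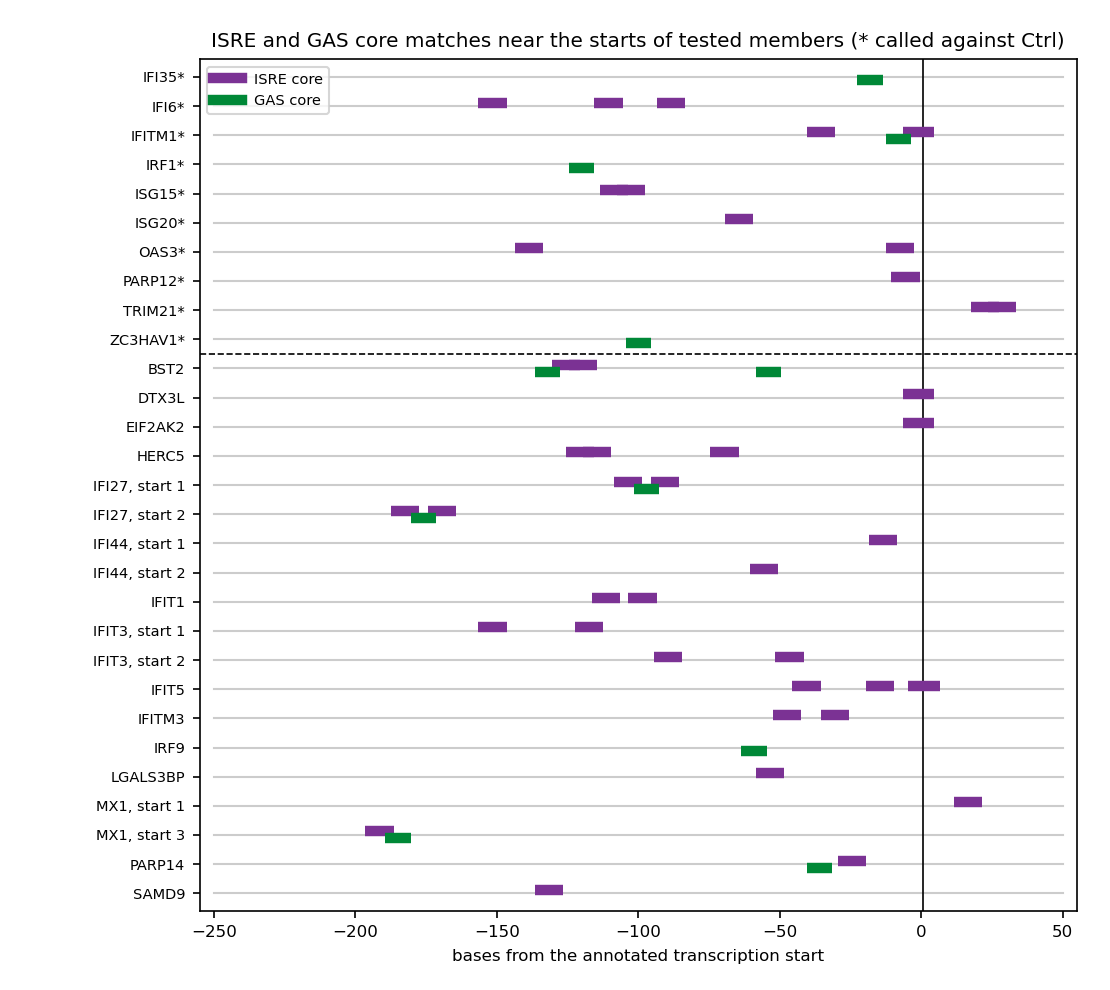
Positions of ISRE and GAS core matches in RefSeq promoter windows of tested members, in bases from the annotated start (vertical line). Rows above the dashed line are members called against Ctrl in either comparison; ISRE and GAS matches appear in rows on either side of that line.

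Relative to Ctrl, DZNep raised 10 of the 44 members and lowered 4 at a Benjamini-Hochberg adjusted p under 0.05 in limma. Over all tested genes 22.4% were higher and 20.4% lower, so the share of members that rose (22.7%) was close to the background and the share that fell (9.09%) was below it. By the limits in the methods of the study (a log2 fold change beyond 1 in size, with P under 0.05 before adjustment), 7 members were higher and 2 lower, against backgrounds of 10.5% and 11.8%. In shEZH2, 7 of 44 members (15.9%) were higher and 0 were lower at the adjusted p, compared with 3.91% and 4.53% of all tested genes. By the fold and P limits, 6 were higher and 0 lower, against 2.27% and 3.03%.

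For 6 of the 44 members (IFIT2, IRF7, TRIM21, OAS3, MX1 and PML), neither control sample reached 10, so they entered the tests only because a treated sample was higher. Among the 38 others, DZNep raised 6 and lowered 4, where 19.1% and 21.7% of all genes with a control sample at 10 or more were called. In shEZH2, 4 of the 38 were higher and 0 lower, against 2.98% and 4.83%. Just inside the limit of 10 lay HERC6, which read 4 and 10 in Ctrl, 7 and 13 with DZNep and 9 and 9 in shEZH2. Just outside lay PARP9, a partner of DTX3L, with 7 and 8, 5 and 7, and 7 and 8. The RNA sensor IFIH1 (MDA5) read 3 to 5 in every sample, DHX58 (LGP2) read 0 to 3 and SAMD9L 0 to 2.

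The median log2 fold change of the 44 members was 0.22 with DZNep and 0.28 in shEZH2, where the medians of all tested genes were 0.02 and -0.01. Without Ctrl replicate 1 the 2 member medians became 0.07 and 0.42, and without DZNep replicate 2 the DZNep median was 0.13. A positive log2 fold change was seen in 30 members with DZNep and in 37 in shEZH2. Of all 9671 tested genes, 4918 and 4777 had one. The member counts and medians include the 6 members that entered only through treated samples, all positive in both comparisons. After scaling, both samples lay above both control samples in 14 members with DZNep and in 27 in shEZH2, compared with 34.8% and 33.5% of all tested genes. Both lay below in 8 and 4 members, compared with 30.8% and 31.6%. Among the 38 members with a control sample at 10 or more, 10 and 21 lay above, compared with 31.0% and 30.0% of all such genes, and 8 and 4 below, compared with 32.8% and 33.6%. In the values of all 44 as deposited, without scaling, 15 and 26 lay above and 5 and 4 below. The comparisons share the control samples, so a low or high control value moves both in the same direction. Of the members, 6 were called higher in both comparisons (ISG15, IFIT2, IRF1, IRF7, TRIM25 and OAS3), and IFI6 was called higher in shEZH2 alone. Among the 6, IFIT2, IRF7 and OAS3 entered the tests only through treated samples. The share of all tested genes called higher in both comparisons was not computed, so the 6 have no background beside them. PARP12, TRIM21, ZC3HAV1 and TYK2 were called higher and ISG20, IFITM1, STAT2 and IFI35 lower with DZNep and not in shEZH2. A call in 1 comparison and not in the other does not show a difference between the treatments, which is tested directly further on. The plot of each called member's values shows how these groups separate.

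**Figure D2:**
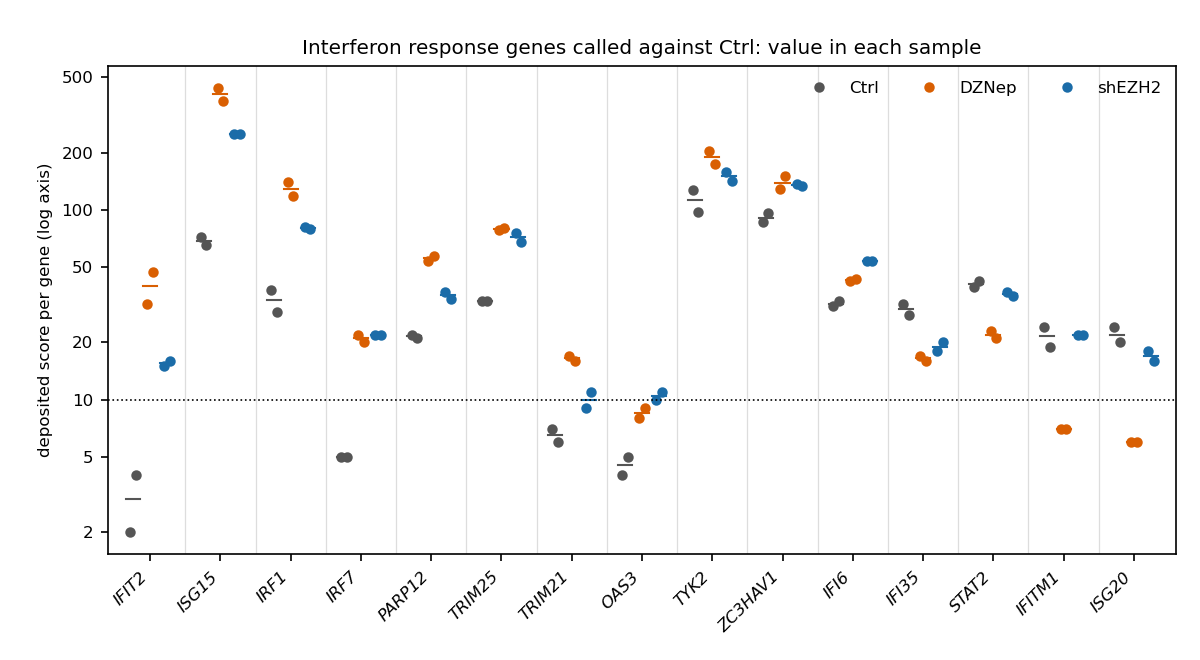
Deposited score (log axis) of the 15 members called against Ctrl in either comparison, in each of the 6 samples, ordered by the log2 fold change with DZNep. Points are samples, short lines are group means of 2 samples and the dotted line is the filter value of 10; ISG15 runs from 65 and 72 in Ctrl to 376 and 437 with DZNep, whereas ISG20 falls from 20 and 24 to 6.

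All groups share 1 estimate of the spread, so calls in both comparisons drew on the nearly identical shEZH2 samples. With only Ctrl and DZNep fitted, 7 members in place of 10 were called higher with DZNep. With only Ctrl and shEZH2 fitted, 10 in place of 7 were called higher in shEZH2. For these and the following alternatives, the share of all tested genes called was not computed. The shEZH2 calls also depended on how the shEZH2 samples were counted. With these samples averaged and counted as 1, 3 members stayed called (ISG15, IFIT2 and IRF7). Without shEZH2 replicate 1 there were 3 calls and without replicate 2 only ISG15 was left, whereas leaving out either DZNep sample gave 11. With DZNep, 7 members in place of 4 were called lower without DZNep replicate 2. The number of DZNep members lower by the fold and P limits was 4 in place of 2 without DZNep replicate 1.

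Of the 4 receptors and kinases, TYK2 alone passed the test in the fit of group means, and only with DZNep. Of all tested genes, 22.4% were called higher and 20.4% lower with DZNep. With a term for replicate number added, JAK1 was also called lower with DZNep (adjusted p = 0.00789). IFNAR1, a chain of the type I receptor, read 12 and 20 in Ctrl, 12 and 20 with DZNep and 17 and 16 in shEZH2. The log2 fold changes were -0.07 ± 0.25 and 0.04 ± 0.25, and the groups overlapped. IFNGR1, the ligand-binding chain of the interferon gamma receptor, read 21 and 29, 24 and 42, and 32 and 29, with log2 fold changes of 0.28 ± 0.23 and 0.25 ± 0.23 (adjusted p = 0.350 and 0.519). JAK1 read 120 and 184 in Ctrl, 86 and 135 with DZNep and 102 and 105 in shEZH2. Its log2 fold changes were -0.53 ± 0.21 and -0.57 ± 0.21 (adjusted p = 0.0778 and 0.131), and with DZNep the adjusted p was 0.0243 without Ctrl replicate 1 and 0.0351 without DZNep replicate 2. TYK2, the kinase bound to IFNAR1, read 127 and 97, 204 and 175, and 159 and 142. It rose with DZNep by 0.69 ± 0.24 on the log2 scale (adjusted p = 0.0453), a call lost without Ctrl replicate 2 (0.214), without DZNep replicate 1 (0.198) and without either shEZH2 sample (0.0771 and 0.0770). It passed in 7 of 16 alternatives in all, and median-ratio scaling (0.0504), no filter (0.0575), no trend (0.0556), only the groups compared (0.0769) and averaged shEZH2 samples (0.0770) also ended it. In shEZH2 its log2 fold change was 0.39 ± 0.24 (adjusted p = 0.321).

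None of the 3 tested sensors passed the test in the fit of group means, a number too small to set against the share of all tested genes. With a term for replicate number added, EIF2AK2 was called lower with DZNep (adjusted p = 0.016). DDX58 (RIG-I), which detects RNA with a 5′ triphosphate, read 12 and 26 in Ctrl, 16 and 28 with DZNep and 20 and 22 in shEZH2. The control samples of DDX58 alone spanned the DZNep low value and nearly its high value, and its log2 fold changes of 0.18 ± 0.32 and 0.19 ± 0.32 became -0.28 and -0.27 without Ctrl replicate 1. IFI16, a DNA sensor, read 9 and 15, 8 and 15, and 13 and 15 (log2 fold changes -0.14 ± 0.28 and 0.20 ± 0.28). EIF2AK2 (PKR), the kinase that halts translation on double-stranded RNA, read 20 and 34 in Ctrl, 14 and 23 with DZNep and 24 and 21 in shEZH2. Its log2 fold change with DZNep was -0.58 ± 0.26 (adjusted p = 0.0996), with adjusted p of 0.0226 without Ctrl replicate 1 and 0.0482 without DZNep replicate 2. In shEZH2 it was -0.26 ± 0.26 (adjusted p = 0.544).

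The transcription factors split. IRF1, a factor induced by interferon gamma and activator of many of these genes, read 38 and 29 in Ctrl, 140 and 118 with DZNep and 81 and 79 in shEZH2. It rose by 1.85 ± 0.24 with DZNep (adjusted p = 0.000862) and by 1.20 ± 0.24 in shEZH2 (adjusted p = 0.0262) on the log2 scale. IRF7, the factor that amplifies type I interferon production, read 5 and 5 in Ctrl and between 20 and 22 in all 4 treated samples. Its log2 fold changes were 1.81 ± 0.21 (adjusted p = 0.000537) and 1.90 ± 0.21 (adjusted p = 0.00566). All treated samples of both factors lay above the controls. STAT2 went the other way with DZNep: it read 39 and 42 in Ctrl, 23 and 21 with DZNep and 37 and 35 in shEZH2. The log2 fold change was -0.92 ± 0.19 with DZNep (adjusted p = 0.00675) and -0.21 ± 0.19 in shEZH2 (adjusted p = 0.503). IRF9, the DNA-binding partner of STAT2, read 40 and 35, 36 and 28, and 45 and 47, with log2 fold changes of -0.30 ± 0.24 and 0.24 ± 0.24 (adjusted p = 0.343 and 0.541). The DZNep calls of IRF1, IRF7 and STAT2 held under all 16 alternatives tried. In shEZH2, IRF1 lost its call without Ctrl replicate 2 (adjusted p = 0.0704) and without either shEZH2 sample (0.188 and 0.182), and IRF7 lost it without shEZH2 replicate 2 (0.0526).

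Among ISG15 and the ubiquitin enzymes, 3 of 7 tested members rose with DZNep (22.4% of all tested genes) and 2 in shEZH2 (3.91% of all), and none fell. TRIM21, which is counted among those that rose with DZNep, entered the tests only through treated samples. ISG15 read 72 and 65 in Ctrl, 437 and 376 with DZNep and 252 and 252 in shEZH2. No sample of 1 group reached the range of another. The log2 fold change of ISG15 was 2.48 ± 0.20 with DZNep (5.57-fold, adjusted p = 0.000149) and 1.82 ± 0.20 in shEZH2 (3.53-fold, adjusted p = 0.00582), and ISG15 kept both calls under all 16 alternatives. TRIM25, a ubiquitin ligase that activates RIG-I, read 33 and 33, 78 and 80, and 75 and 68. It rose by 1.16 ± 0.17 (adjusted p = 0.00151) and 1.04 ± 0.17 (adjusted p = 0.0163) on the log2 scale, the latter lost without either shEZH2 sample (0.219 and 0.170). TRIM21, a cytosolic antibody receptor and ubiquitin ligase, read 7 and 6, 17 and 16, and 9 and 11. It rose with DZNep by 1.16 ± 0.23 on the log2 scale (adjusted p = 0.00553) and its log2 fold change in shEZH2 was 0.51 ± 0.23 (adjusted p = 0.196). UBE2L6, HERC5 and USP18, which attach or remove ISG15, did not pass the test in either comparison. UBE2L6, the conjugating enzyme, read 34 and 30 in Ctrl, 37 and 27 with DZNep and 41 and 38 in shEZH2. HERC5, the main ISG15 ligase, read 16 and 26, 15 and 23, and 21 and 19. USP18, which removes ISG15 and restrains the receptor, read 16 to 19 in every sample.

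Among the RNA-directed effectors, 10 of 15 listed genes were tested. With DZNep 3 rose and 1 fell, where 22.4% and 20.4% of all tested genes did. In shEZH2, 2 rose and 0 fell, against 3.91% and 4.53%. The members that rose in shEZH2 were IFIT2 and OAS3, which also rose with DZNep. Both entered the tests only through treated samples, so these counts are in part set by the filter. IFIT2, which binds viral RNA and blocks its translation, read 2 and 4 in Ctrl, 32 and 47 with DZNep and 15 and 16 in shEZH2. This was the largest log2 fold change of any tested member in both comparisons, at 3.31 ± 0.25 (adjusted p = 0.000107) and 2.06 ± 0.25 (adjusted p = 0.00793). The shEZH2 call of IFIT2 was lost without shEZH2 replicate 2 (0.0538). The size of both values depends on the pseudocount, with log2 fold changes of 2.43 to 3.62 and 1.35 to 2.37 over all alternatives. The neighbouring IFIT genes changed less. IFIT2, IFIT3, IFIT1 and IFIT5 lie in that order on chromosome 10 between 89283694 and 89421605 (GENCODE v44, GRCh38). IFIT3 read 11 and 17 in Ctrl, 14 and 22 with DZNep and 26 and 30 in shEZH2, with log2 fold changes of 0.27 ± 0.24 (adjusted p = 0.387) and 0.93 ± 0.24 (adjusted p = 0.0505). IFIT1 read 9 and 14, 14 and 25, and 21 and 22, and IFIT5 read 9 and 14, 11 and 21, and 12 and 12. These neighbours were chosen after their values were seen. IFIT, IFITM, OAS and MX genes have close paralogs, so the split of reads among them is uncertain.

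OAS3, a synthetase of the 2-5A that activates RNase L, read 4 and 5 in Ctrl, 8 and 9 with DZNep and 10 and 11 in shEZH2. It rose by 0.73 ± 0.19 (adjusted p = 0.0184) and 1.03 ± 0.19 (adjusted p = 0.0225) on the log2 scale, at values near the filter. Of 15 alternatives, 10 kept the DZNep call of OAS3 and 12 the shEZH2 call. The DZNep call of OAS3 was lost without Ctrl replicate 1 (0.0564) or either shEZH2 sample (0.0640 and 0.0638), and the shEZH2 call without either shEZH2 sample (0.208 and 0.276). ZC3HAV1 (ZAP), which directs decay of CpG-rich RNA, read 86 and 96, 128 and 150, and 137 and 134. Its log2 fold changes were 0.53 ± 0.15 (adjusted p = 0.0225) and 0.52 ± 0.15 (adjusted p = 0.0648). The DZNep call of ZC3HAV1 was kept in 9 of 16 alternatives. Leaving out Ctrl replicate 1 (0.0560), Ctrl replicate 2 (0.0723), DZNep replicate 1 (0.0592) or either shEZH2 sample (0.104) ended it, and the shEZH2 value passed without DZNep replicate 1 (0.0496) or 2 (0.0491). ISG20, an exonuclease that degrades single-stranded RNA, fell with DZNep. It read 24 and 20 in Ctrl, 6 and 6 with DZNep and 18 and 16 in shEZH2. The log2 fold change was -1.78 ± 0.22 with DZNep (adjusted p = 0.000695), the lowest of the tested members, and -0.40 ± 0.22 in shEZH2 (adjusted p = 0.268). ADAR, which edits adenosine in double-stranded RNA, read 73 and 76, 102 and 105, and 87 and 82, and OASL, a relative of the OAS enzymes, read 19 and 16, 26 and 26, and 23 and 22. In both, all treated samples lay above the controls, but neither passed the test.

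Among the 6 blockers of viral entry and release, IFITM1 alone passed a test (22.4% of all tested genes rose and 20.4% fell with DZNep). This membrane protein, which hinders fusion of viral and cellular membranes, read 24 and 19 in Ctrl, 7 and 7 with DZNep and 22 and 22 in shEZH2. With DZNep the log2 fold change of IFITM1 was -1.55 ± 0.22 (adjusted p = 0.00136) and it was -0.0065 ± 0.22 in shEZH2 (adjusted p = 0.988), where the groups overlapped and the sign turned with the scaling. IFITM2, which lies next to IFITM1 on chromosome 11, read 120 and 109, 144 and 120, and 157 and 158. BST2 (tetherin), which holds budding virus at the cell surface, read 147 and 120, 165 and 169, and 157 and 160. IFITM3 read 39 to 70, MX1 8 to 13 and MX2 18 to 24 over the 6 samples. Neither IFITM2, IFITM3, BST2, MX1 nor MX2 passed the test in either comparison.

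PARP12, an ADP-ribosyltransferase that restricts viral replication, read 22 and 21 in Ctrl, 54 and 57 with DZNep and 37 and 34 in shEZH2, without overlap between the groups. It rose with DZNep by 1.26 ± 0.18 on the log2 scale (adjusted p = 0.00132) and had a log2 fold change of 0.65 ± 0.18 in shEZH2 (adjusted p = 0.0615), called without DZNep replicate 1 (0.0443) or 2 (0.0434). PARP14 read 13 and 30, 19 and 36, and 26 and 27, and DTX3L, the ubiquitin ligase partner of PARP9, read 10 and 12, 5 and 10, and 12 and 12. The nuclear body proteins SP100 (17 to 27) and PML (6 to 13) were not called. Of 5 tested members with other or less clear roles, IFI35 read 32 and 28 in Ctrl, 17 and 16 with DZNep and 18 and 20 in shEZH2. All 4 treated samples lay below the controls, with log2 fold changes of -0.89 ± 0.22 (adjusted p = 0.0128) and -0.68 ± 0.22 (adjusted p = 0.0883). IFI6, a mitochondrial and endoplasmic reticulum protein, read 31 and 33, 42 and 43, and 54 and 54. Its log2 fold changes were 0.33 ± 0.17 (adjusted p = 0.158) and 0.69 ± 0.17 (adjusted p = 0.0488). The shEZH2 call of IFI6 was kept in 9 of 16 alternatives. It was lost without either control sample (0.0601 and 0.141) and without either shEZH2 sample (0.389 and 0.410). LGALS3BP, a secreted glycoprotein, read 92 and 70, 104 and 73, and 135 and 130, and IFI27, a small hydrophobic membrane protein, read 49 and 40, 33 and 39, and 55 and 60. Neither passed the test. The plot of log2 fold changes by role gives the remaining members.

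**Figure D3:**
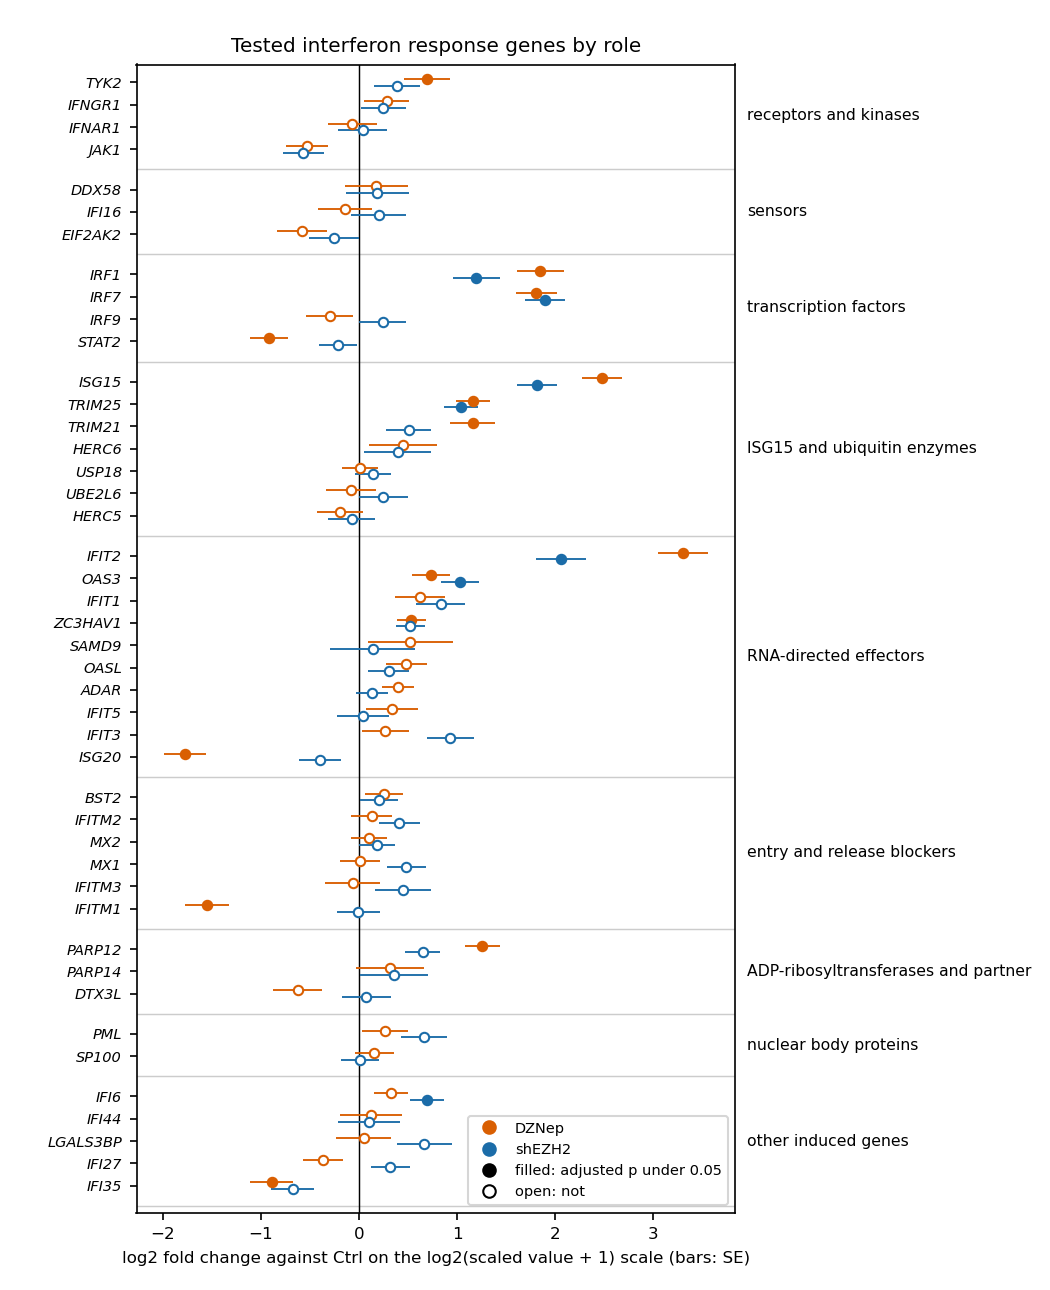
Log2 fold change against Ctrl of the 44 tested members on the log2(scaled value + 1) scale, for DZNep and shEZH2, grouped by role; bars are standard errors and filled points passed an adjusted p under 0.05. IFIT2 lies farthest right in both comparisons, and ISG20, IFITM1, STAT2 and IFI35 are the filled points left of 0.

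The treatments were compared directly because a gene can pass 1 test against the shared controls and miss the other. At an adjusted p under 0.05, 2 members were higher and 1 lower in shEZH2 than with DZNep, against 4.88% and 4.42% of all tested genes. IFITM1 was higher in shEZH2 by 1.54 ± 0.22 (adjusted p = 0.00957) and ISG20 by 1.38 ± 0.22 (adjusted p = 0.0119) on the log2 scale. IFIT2 was lower in shEZH2, with a log2 fold change of -1.25 ± 0.25 (adjusted p = 0.0252). Each of these calls was lost without either shEZH2 sample (adjusted p = 0.0778 and 0.0924 for IFITM1, 0.131 and 0.105 for ISG20, 0.212 and 0.162 for IFIT2), and that of IFIT2 also without DZNep replicate 2 (0.0593). For ISG15 the log2 fold change was -0.66 ± 0.20 (adjusted p = 0.0800), below the threshold without either Ctrl sample (0.0491 and 0.0478) or without DZNep replicate 2 (0.0407). For STAT2 it was 0.71 ± 0.19 (adjusted p = 0.0567), below the threshold without either Ctrl sample (0.0441 and 0.0432) or without DZNep replicate 1 (0.0392). Without a Ctrl sample or DZNep replicate 1, 4 members were called higher in shEZH2, and without either shEZH2 sample 0 were.

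Some members were higher in replicate 2 than in replicate 1 of Ctrl and of DZNep alike. In 6 of the 44 (HERC6, PARP14, SAMD9, DDX58, IFI44 and IFI16), replicate 2 exceeded replicate 1 by more than 0.5 on the log2 scale in both groups, a share of 13.6% compared with 8.80% of all tested genes. SAMD9, an antiviral restriction factor, read 5 and 12 in Ctrl and 7 and 21 with DZNep, against 9 and 9 in shEZH2. IFI44 read 13 and 27, 16 and 29, and 20 and 22. In shEZH2, no member differed by more than 0.5 between replicates. IFNAR1, EIF2AK2 and JAK1 were also higher in replicate 2 of Ctrl and of DZNep, as the values above show, whereas ISG15, IRF1 and TYK2 were higher in replicate 1. These differences between replicates enter the errors of the members named.

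**Figure D4:**
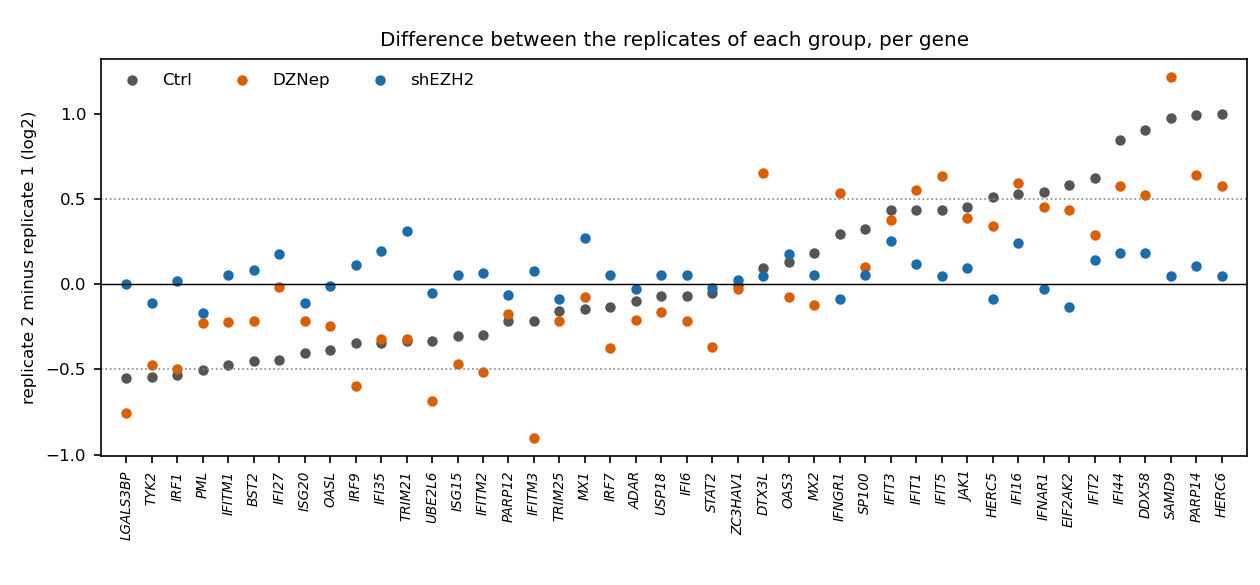
Difference between replicate 2 and replicate 1 (log2 of scaled value + 1) for each tested member in each group, ordered by the difference in Ctrl; dotted lines mark 0.5 in either direction. Grey (Ctrl) and orange (DZNep) points tend to lie on the same side of 0, and the blue shEZH2 points lie near 0.

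The wider pathway was covered by 78 further genes that are not among the 56. Of these, 62 were in the table and 43 were tested, and none of the 8 interferon ligands was among them. With DZNep, 8 of the 43 were higher and 9 lower, beside 22.4% and 20.4% of all tested genes. In shEZH2, 6 were higher and 0 lower, beside 3.91% and 4.53%. These counts include GBP1, higher in both comparisons, and APOL1, higher with DZNep, which entered the tests only through treated samples. They also include GBP2 and RNF135, lower with DZNep, which reached 10 only in the control samples. The fall of GBP2 and RNF135 is therefore in part set by the filter. The median log2 fold changes of the 43 were 0.04 and -0.01. The 5 with the largest changes all fell with DZNep. GBP2, an interferon-induced GTPase, read 12 and 13 in Ctrl, 2 and 3 with DZNep and 8 and 8 in shEZH2, and fell with DZNep (log2 fold change -2.03 ± 0.20, adjusted p = 0.000278). DDX60 (-2.0 ± 0.35), SLFN5 (-1.87 ± 0.25), RNF135 (-1.74 ± 0.26), a ligase that activates RIG-I, and TRIM5 (-1.72 ± 0.23), a retroviral restriction factor, fell with DZNep with adjusted p of at most 0.00305. None of the 5 passed the test in shEZH2, where their log2 fold changes ran from -0.97 to -0.63. Of the 8 that rose with DZNep, the largest changes were those of STING1, an adaptor of DNA sensing, and GBP1, a GTPase, both chosen after their values were seen. STING1 read 16 and 14, 49 and 49, and 37 and 36, with log2 fold changes of 1.58 ± 0.20 (adjusted p = 0.000779) and 1.19 ± 0.20 (adjusted p = 0.0169). GBP1 read 3 and 5, 11 and 17, and 10 and 9, with log2 fold changes of 1.53 ± 0.24 (adjusted p = 0.00184) and 1.06 ± 0.24 (adjusted p = 0.0351), and both control samples were under 10.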

How the data were processed

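RNA was sequenced from 6 OVCAR8 samples, 2 per group, grouped by the genotype and treatment labels. Per the study's methods, the authors removed ribosomal RNA, prepared stranded libraries and used fastp for trimming, STAR for alignment to GRCh38 and RSEM for quantification; STAR and RSEM versions are not given in the sources used here. The deposited values are a score: whole numbers with a common total in all samples, scaled and rounded by the authors in a way the sources do not state, so levels of different genes were not compared. The authors' methods name edgeR, which models read counts and was not applied to scaled values. Instead, values were divided by TMM factors (30% and 5% trimming, no weights), transformed as log2(value + 1), and tested with limma 3.58.1 (lmFit, eBayes with an intensity trend) in R 4.3.3. All 6 samples entered 1 fit of group means, which therefore shares 1 estimate of the spread. P-values are two-sided and were Benjamini-Hochberg adjusted over the 9671 genes that reached 10 in 2 or more of the 6 samples. Fold changes refer to the log2(value + 1) scale, which understates the change of low genes. Depth is unknown, so no counting interval was computed.

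The members and all lists were chosen with earlier results of these data known. Full values are given for tested members past an absolute log2 fold change of 1 and the adjusted p in either comparison. They are also given for 8 receptors, kinases and factors, for the tested sensors and for members called between the treatments. The others appear as examples by role with the highest mean. Further names chosen after seeing values are IFIT1, IFIT5, USP18, SAMD9, IFI44, STING1, GBP1, APOL1 and the members called at a smaller fold. Of the 10 listed genes without a promoter entry, those tested are named in the text, and DDX58 was matched through its current symbol. The fit was tested on simulated data with the same independent spread in every group. That test does not cover the unequal spreads and the shared replicate differences of these samples. Alternatives were other scalings, filters and pseudocounts, no trend, only the groups compared, a replicate block, averaged shEZH2 samples, and each sample left out. Figures were drawn with matplotlib 3.10.9.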

Additional observations from a re-analysis of the deposited data

How the results depend on the processing

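Over 16 alternatives, the 21 calls of members against Ctrl kept their sign and 12 of them passed in every alternative where they were tested. With the replicate block, DZNep raised 13 members (10 without) and lowered 7 (4 without), shEZH2 raised 13 and lowered 2, and 9 were higher and 5 lower in shEZH2 than with DZNep. The share of all tested genes called was not computed under the alternatives. Member counts there therefore do not show whether members or all genes gained or lost calls. EIF2AK2 (adjusted p = 0.0160) and JAK1 (0.00789) were then called lower with DZNep. Differences between replicates were shared by Ctrl and DZNep and not by shEZH2. Across all tested genes they correlated at 0.786 for Ctrl and DZNep, -0.0242 for Ctrl and shEZH2 and -0.0385 for DZNep and shEZH2. The main fit has no replicate term, so the shared part adds to the error of DZNep against Ctrl. The block fits 1 replicate difference to all groups, which the shEZH2 samples do not share. With the shEZH2 samples averaged, 3 members were higher in shEZH2 than in Ctrl, and 0 were higher and 0 lower than with DZNep (4 and 2 with only the groups compared; 2 lower with values as deposited). EZH2 kept its direction but missed the threshold with DZNep when only the groups compared were fitted (log2 fold change -0.632, adjusted p = 0.0880) and with averaged samples (-0.632, 0.0915), and in shEZH2 with averaged samples (-1.12, 0.194), besides the single samples named above. Leaving out single samples gave ranges of 4 to 7 members lower with DZNep, 2 to 4 by the fold and P limits, member medians of 0.067 to 0.292 with DZNep, 0.276 to 0.415 in shEZH2 and 0.0238 to 0.23 between treatments, 1 to 11 members higher in shEZH2, 0 to 4 higher and 0 to 2 lower between treatments, and EZH2 log2 fold changes of -0.755 to -0.51 with DZNep and -1.15 to -1.09 in shEZH2. Uncalled members turned sign: without 1 sample, the log2 fold change of DDX58 ran from -0.275 to 0.629 with DZNep and from -0.267 to 0.638 in shEZH2, EIF2AK2 from -0.547 to 0.0362 in shEZH2, IFI16 from -0.441 to 0.155 and from -0.0668 to 0.465, IFNAR1 from -0.339 to 0.203 and from -0.234 to 0.309, and IFITM1 in shEZH2 from -0.244 to 0.231 (0.0407 with values as deposited). Leaving out 1 sample of Ctrl or DZNep also unbalances the difference between replicates that Ctrl and DZNep share. With values as deposited, 66% of all shEZH2 calls were higher, against 46.3%, while members went from 7 higher and 0 lower to 9 and 0. The cause of these changes was not tested. With 2 samples a group and rounded values, members near 10 carry the least precision.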
